A study of Mus musculus with 16 samples.

Results

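The genes described here encode the proteins of the mitochondrial ribosome. They were taken as the probe sets with a single annotated mouse symbol beginning Mrpl or Mrps and a digit, with 1 probe set per gene, the one of highest mean signal over the 16 arrays. The rule found 76 of the 18193 genes tested, from 156 probe sets. By the current nomenclature 49 of them encode large subunit proteins, 26 encode small subunit proteins, and 1, Mrps36, encodes a component of the oxoglutarate dehydrogenase complex in spite of its symbol. Mrps30 (mL65) and Mrps18a (mL66) carry small subunit symbols but belong to the large subunit and are counted there. Mrpl30 and Mrpl53 were present only on probe sets annotated to several genes and are not described.

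RNA came from the ventricular myocardium of male mice aged 14 weeks on the outbred CD1 background, and each array held 1 sample. The knockout (KO) mice lacked the adenosine 2A receptor (A2AR) and came from a sub-colony of an established line, and the wild-type (WT) mice were their littermates from the same breeding series. LPS, an endotoxin purified from E. coli that provokes systemic inflammation, was injected once intraperitoneally at 20 mg/kg. The 4 groups were KO mice 24 h after LPS, KO mice 24 h after saline, WT mice 24 h after LPS and WT mice 24 h after saline, with 4 arrays each. The promoter or cell type of the deletion is not given in the sources used here, and the genotype of each array rests on its label.

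The mitochondrial ribosome translates the small set of membrane proteins of the respiratory chain and ATP synthase that mitochondrial DNA encodes. All of its proteins are encoded in the nucleus, made in the cytosol and imported, whereas its ribosomal RNAs come from mitochondrial DNA. Many of the proteins descend from those of bacterial ribosomes and others were acquired in the mitochondrial lineage. The heart depends on oxidative phosphorylation for most of its ATP and is rich in mitochondria.

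All 76 genes gave a mean signal above the median over all probe sets, which was 4.64 on the log2 scale. The brightest probe set of each gene was used, which favours this, and the median over all genes tested in the same way was 5.73. The mean levels of the 76 genes lay between 6.65 (Mrps27) and 11.83 (Mrpl42), with a median of 9.18. In the small subunit the highest means belonged to Mrps34 (10.48), Mrps28 (10.17) and Mrps24 (9.88), and the lowest to Mrps27, Mrps5 (7.23) and Mrps11 (7.68). In the large subunit they belonged to Mrpl42, Mrpl39 (11.56) and Mrpl51 (11.38) at the upper end, and to Mrpl19 (7.66), Mrpl49 (7.73) and Mrpl36 (7.81) at the lower. Signals of different probe sets depend on their probes, so this order does not rank transcript abundance.

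Some arrays stood apart within their group. Of the 76 genes, 61 had their lowest KO LPS value on array 2 and 56 their highest on array 4, and 46 had their highest WT LPS value on array 4. Among the saline arrays, 59 genes were lowest on WT saline array 3 and 39 on KO saline array 1. Transcripts of skeletal muscle, a tissue outside the labelled one, were raised on WT saline arrays 1 and 4, where the mean over 9 skeletal muscle markers was 6.11 and 7.63. The same mean lay between 4.21 and 4.43 on the KO LPS, KO saline and WT LPS arrays and was lowest at 4.32 in WT saline. Most WT counts are therefore also given without those 2 arrays, which leaves 2 WT saline arrays. Some, such as those for sites of the ribosome, are given with all arrays only. Where a named gene lost its WT call without those 2 arrays, it is said beside its value. Cardiomyocyte markers had mean levels between 13.23 and 13.60 on every array, as fits the labelled tissue.

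Promoters of genes of mitochondrial proteins often bind the transcription factors NRF1, YY1 and ETS family members such as GABP, which are best known from human and mouse cells as regulators of nuclear genes of respiration. RefSeq promoter windows of the mouse assembly GRCm38.p6, running from 250 bases before the first listed start to 30 after it, were available for 67 of the 76 genes. Each was searched on both strands for the letters of the NRF1 motif (GCGCACGCGC, with any base allowed at position 6), the ETS motif (CCGGAAG, which reads as CTTCCGG on the other strand) and the YY1 motif (AAGATGGC). The 6 windows below show these elements, with matches to the 3 motifs in capitals: the largest called fall in KO mice among promoters with an NRF1 match (Mrpl45) and among those with an ETS match (Mrpl34), and 4 genes that changed after LPS in KO mice and held 2 kinds of motif (Mrps27, Mrps18a, Mrps21, Mrpl17).
Mrpl45 (chr11:97315466-97315745, forward strand): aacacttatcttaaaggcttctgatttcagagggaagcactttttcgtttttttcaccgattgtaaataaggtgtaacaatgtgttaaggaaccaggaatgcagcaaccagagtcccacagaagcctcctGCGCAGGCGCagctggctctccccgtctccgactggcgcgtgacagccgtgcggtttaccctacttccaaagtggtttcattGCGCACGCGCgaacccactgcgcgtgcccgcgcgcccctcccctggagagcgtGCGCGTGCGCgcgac
Mrpl34 (chr8:71464676-71464955, forward strand): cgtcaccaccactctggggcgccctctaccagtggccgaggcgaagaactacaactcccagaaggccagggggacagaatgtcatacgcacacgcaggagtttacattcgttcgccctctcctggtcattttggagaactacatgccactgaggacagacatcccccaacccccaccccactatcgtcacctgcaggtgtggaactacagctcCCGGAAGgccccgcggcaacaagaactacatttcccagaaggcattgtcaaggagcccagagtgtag
Mrps27 (chr13:99344536-99344815, forward strand): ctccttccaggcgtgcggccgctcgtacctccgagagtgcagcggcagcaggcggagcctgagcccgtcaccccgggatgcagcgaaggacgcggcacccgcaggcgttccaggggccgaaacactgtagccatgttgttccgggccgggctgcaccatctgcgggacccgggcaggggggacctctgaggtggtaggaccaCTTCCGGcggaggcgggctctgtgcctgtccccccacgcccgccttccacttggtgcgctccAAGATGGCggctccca
Mrps18a (chr17:46110754-46111033, forward strand): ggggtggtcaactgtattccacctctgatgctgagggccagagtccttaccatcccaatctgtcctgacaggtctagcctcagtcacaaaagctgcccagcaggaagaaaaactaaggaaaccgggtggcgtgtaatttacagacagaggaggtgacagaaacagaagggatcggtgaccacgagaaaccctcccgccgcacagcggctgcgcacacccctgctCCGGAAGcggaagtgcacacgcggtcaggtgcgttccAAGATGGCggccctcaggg
Mrps21 (chr3:95871485-95871764, reverse strand): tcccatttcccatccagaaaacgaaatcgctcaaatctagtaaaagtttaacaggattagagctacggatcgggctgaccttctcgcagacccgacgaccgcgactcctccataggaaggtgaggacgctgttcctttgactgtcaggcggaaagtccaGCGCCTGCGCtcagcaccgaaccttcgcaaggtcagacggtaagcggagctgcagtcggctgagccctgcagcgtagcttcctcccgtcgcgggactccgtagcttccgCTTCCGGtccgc
Mrpl17 (chr7:105811058-105811337, reverse strand): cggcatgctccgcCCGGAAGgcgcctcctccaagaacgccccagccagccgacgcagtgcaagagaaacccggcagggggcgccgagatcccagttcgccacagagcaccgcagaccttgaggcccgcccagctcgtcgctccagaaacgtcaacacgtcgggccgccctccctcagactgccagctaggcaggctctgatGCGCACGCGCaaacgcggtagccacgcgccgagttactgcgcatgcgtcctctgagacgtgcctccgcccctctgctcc

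The Mrpl45 window held 3 NRF1 matches, 120 and 38 bases before the start and 15 bases after it. Mrpl34 held 1 ETS match 37 bases before its start. In Mrps27 and Mrps18a an ETS match 48 and 26 bases before the start was followed by a YY1 match 14 and 11 bases after it. Mrps21 and Mrpl17 each held 1 NRF1 and 1 ETS match. Mrpl17 was higher in KO mice after LPS and the other 5 genes were lower, so both directions occurred among promoters with these letters. Of these calls, that of Mrps21 was made in 17 of 25 alternative settings and that of Mrpl17 in 15.

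ETS letters occurred in 22 of the 67 mitoribosomal promoters (32.8%), against 8.70% of all 27025 promoters and 11.3% of the 17425 promoters of other protein-coding genes. NRF1 letters occurred in 12 (17.9%), against 4.57% of all and 6.26% of other protein-coding promoters. YY1 letters occurred in 8 (11.9%), against 2.38% and 2.49%. At least 1 of the 3 motifs was found in 34 of the 67 windows, or 50.7%, and in 14.3% of all promoters. No ETS match overlapped a YY1 match in these windows. The E-box (CACGTG, 7.46% against 6.89% of all), the ERR site (AAGGTCA, 4.48% against 4.42%) and CCAAT (35.8% against 36.6%) lay close to the shares over all promoters. The median GC content was 58.2% in the mitoribosomal windows, 52.5% in all and 56.1% in other protein-coding ones. Matches are letters in a window and not evidence of binding. Split by response, the 34 promoters of genes called lower in KO mice after LPS and the other 33 held ETS letters in 35.3% and 30.3%, NRF1 letters in 20.6% and 15.2%, and YY1 letters in 8.82% and 15.2%.

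**Figure D1:**
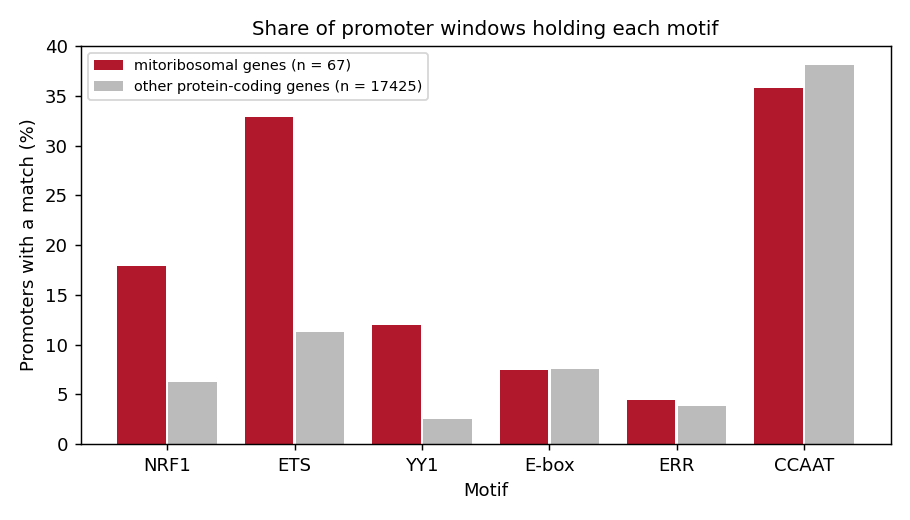
Share of promoter windows (percent, vertical axis) that held each of 6 motifs, for 67 mitoribosomal genes (red) and 17425 other protein-coding genes (grey). The ETS, NRF1 and YY1 bars of the mitoribosomal genes stand above the grey bars, while the E-box, ERR and CCAAT bars lie near them.

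Mitoribosomal transcripts were mostly lower 24 h after LPS. In KO mice 40 of the 76 genes were called lower than after saline and 3 were called higher, at an adjusted p under 0.05 in limma over all genes tested; over all genes 14.7% were called lower and 11.4% higher. In WT mice 25 of the 76 were called lower and 0 higher, against 11.6% and 9.28% over all genes. The median log2 change over the 76 genes was −0.35 in KO mice and −0.27 in WT mice, while the median over all genes was −0.02 and −0.00. The change was negative in 69 of the 76 genes in KO mice and in 62 in WT mice, and the 62 genes negative in WT mice were also negative in KO mice. Falls of more than 0.5 log2 units were called for 26 genes in KO mice and 11 in WT mice, and 1 fall, of Mrpl34 in KO mice, was more than 1 unit. The shares of all genes with called falls of these sizes were not computed, so these counts do not set the 76 genes apart. The values of all 4 LPS arrays lay below all 4 saline arrays for 36 genes in KO mice and 32 in WT mice, compared with 16.1% and 11.9% of all genes. They lay above them for 0 genes in KO mice and 3 in WT mice, against 12.3% and 10.9% of all genes. The 3 were Mrpl9 (0.33), Mrpl17 (0.27) and Mrps18b (0.19), not called in WT mice. Without WT saline arrays 1 and 4 the WT count was 7, namely Mrpl12, Mrpl18, Mrpl19, Mrpl39, Mrpl45, Mrps2 and Mrps6, when 6.11% of all genes were called lower, and the WT median was −0.24. Without KO LPS array 2 the KO count was 31, with 12.4% of all genes called lower, and leaving out KO saline array 2 gave the lowest KO count, 27. The WT count was 34 without KO LPS array 2, since all arrays share 1 estimate of the spread.

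**Figure D2:**
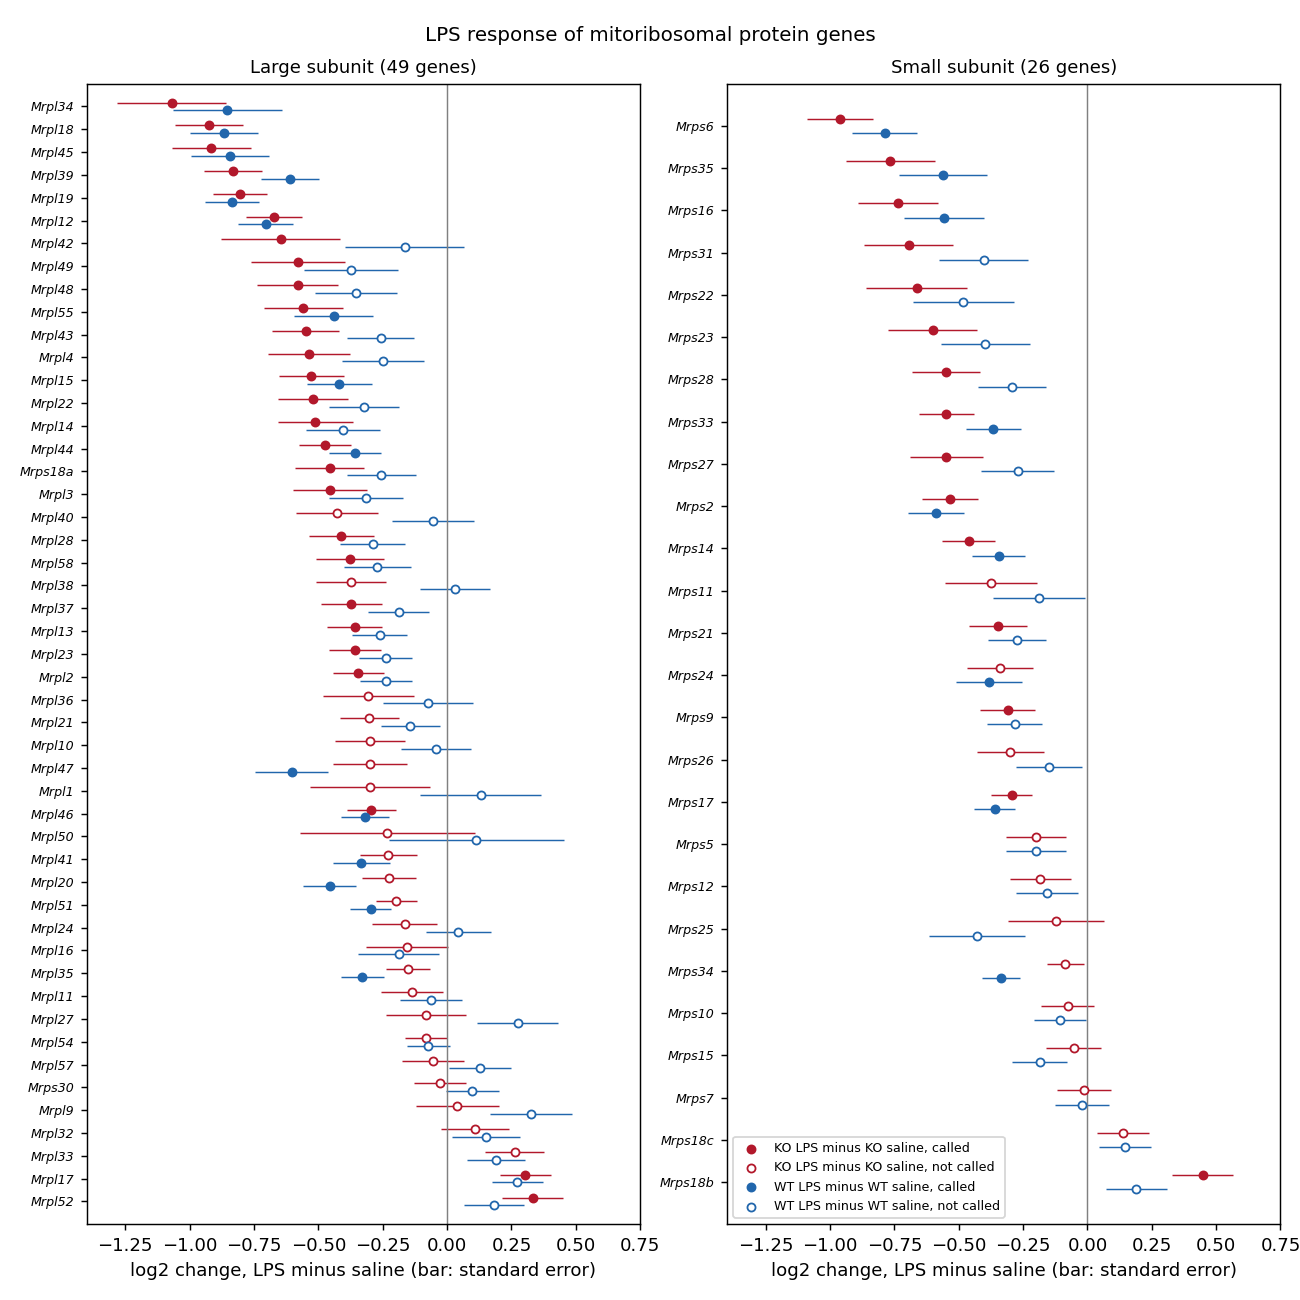
Log2 change after LPS (horizontal axis, LPS minus saline) of each large subunit gene (left) and small subunit gene (right), in KO mice (red) and WT mice (blue). Points are limma estimates from 4 arrays per group with standard errors, filled where the adjusted p was under 0.05. Most points lie left of 0, and Mrps18b, Mrpl52 and Mrpl17 are the filled points right of 0.

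The subunits gave similar counts, to be read against 14.7% of all genes called lower in KO mice and 11.6% in WT mice. Among the 49 large subunit genes, 25 were called lower and 2 higher in KO mice and 15 lower in WT mice, with median changes of −0.36 and −0.26. Among the 26 small subunit genes, 14 were called lower and 1 higher in KO mice and 9 lower in WT mice, with medians of −0.34 and −0.31. Without WT saline arrays 1 and 4 the WT counts were 5 of 49 and 2 of 26, with medians of −0.21 and −0.27. Genes of bacterial ancestry and mitochondria-specific genes were called lower in both subunits: in KO mice 14 of 29 and 11 of 20 in the large subunit, and 8 of 16 and 6 of 10 in the small. The difference between subunits or ancestries was not tested.

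Mrpl34, the bL34 protein of the large subunit, had the largest change in KO mice, with values from −1.20 to −0.64 over the 25 settings. In WT mice the largest fall was that of Mrpl18 (−0.87). The Mrpl34 signal was 7.61, 6.79, 7.62 and 7.87 on the KO LPS arrays, against 8.26, 8.60, 8.65 and 8.66 on the KO saline arrays. It was 7.86, 7.69, 7.61 and 8.22 on the WT LPS arrays, against 8.80, 8.92, 8.23 and 8.83 on the WT saline arrays. In both genotypes every LPS array was below every saline array, with KO LPS array 2 far below the rest. The log2 change was −1.07 ± 0.21 in KO mice (standard error, adjusted p = 0.00114), a level 0.476 times that after saline, and −0.85 ± 0.21 in WT mice (adjusted p = 0.00727). The WT call was lost without WT saline arrays 1 and 4.

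Mrps6, the bS6 protein, was the small subunit gene with the largest fall. It measured 8.63, 8.44, 8.47 and 8.62 on the KO LPS arrays, against 9.47, 9.48, 9.50 and 9.55 on the KO saline arrays. On the WT LPS arrays it measured 8.53, 8.60, 8.51 and 9.18, against 9.38, 9.62, 9.45 and 9.52 on the WT saline arrays. The groups did not overlap, and WT LPS array 4 lay closest to the saline values. The change was −0.96 ± 0.13 in KO mice (adjusted p = 3.37e-05) and −0.79 ± 0.13 in WT mice (adjusted p = 0.000267). A second Mrps6 probe set changed by −0.98 and −0.62. RefSeq places Slc5a3, a myo-inositol transporter gene, within the annotated extent of Mrps6, and 19 of the 76 genes overlap another protein-coding gene in this way.

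Mrpl18, the uL18 protein of the central protuberance, a projection at the top of the large subunit, read 9.09, 8.76, 9.15 and 9.62 on the KO LPS arrays, against 9.99, 10.20, 10.06 and 10.08 on the KO saline arrays. The WT LPS arrays read 9.34, 9.25, 9.26 and 9.25, against 10.23, 10.17, 9.997 and 10.18 on the WT saline arrays. No LPS array reached a saline array of its genotype, and the WT LPS values were the closer together. The change was −0.93 ± 0.13 in KO mice (adjusted p = 6.97e-05) and −0.87 ± 0.13 in WT mice (adjusted p = 0.000151). Of 9 proteins placed at the central protuberance, 5 were called lower and 1, Mrpl52, higher in KO mice, and 3 were called lower in WT mice. Over all genes 14.7% were called lower in KO mice and 11.6% in WT mice. Mrpl48 changed by −0.58 (adjusted p = 0.0118) in KO mice and −0.35 (0.137) in WT mice, and Mrpl38 by −0.37 (0.0524) and 0.03 (0.918).

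Mrpl45, the mL45 protein that anchors the ribosome to the inner membrane near the exit of the peptide tunnel, had levels of 7.94, 7.54, 7.74 and 8.13 after LPS in KO mice, against 8.77, 8.80, 8.75 and 8.68 after saline. Levels in WT mice were 7.69, 7.89, 7.86 and 8.48 after LPS, against 8.90, 8.84, 8.68 and 8.88 after saline. The groups were separate in both genotypes, with WT LPS array 4 highest among the LPS arrays. The change was −0.92 ± 0.15 in KO mice (adjusted p = 0.000266) and −0.84 ± 0.15 in WT mice (adjusted p = 0.000682). Around the same exit site 6 genes were measured, of which 3 were called lower and 1 higher in KO mice and 2 lower in WT mice. The shares called lower over all genes were 14.7% and 11.6%. Mrpl22 (uL22, −0.52) and Mrpl23 (uL23, −0.36) were the others called lower in KO mice, Mrpl17 (bL17) was called higher, and Mrpl24 (uL24) changed by −0.16 with an adjusted p of 0.395. Mrpl47, the uL29 protein, changed by −0.30 in KO mice (adjusted p = 0.142) and by −0.60 ± 0.14 in WT mice (adjusted p = 0.00546), a WT call that was lost when its other probe sets were used and without WT saline arrays 1 and 4 (adjusted p = 0.0845).

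Mrpl12, the stalk protein that recruits translation factors and whose human form also binds the mitochondrial RNA polymerase, had levels of 10.21, 10.19, 10.14 and 10.30 after LPS in KO mice, against 10.85, 10.93, 10.82 and 10.92 after saline. In WT mice it had 10.23, 10.12, 10.09 and 10.71 after LPS, against 11.01, 10.97, 11 and 10.99 after saline. Every LPS array was below every saline array of its genotype, and WT LPS array 4 came nearest to the saline values. The change was −0.67 ± 0.11 (adjusted p = 0.000205) in KO mice and −0.70 ± 0.11 (adjusted p = 0.000163) in WT mice. Its stalk neighbours Mrpl10 and Mrpl11 were not called, with changes of −0.30 and −0.14 in KO mice and −0.04 and −0.06 in WT mice.

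Mrpl39 (mL39) gave 10.95, 10.81, 11.23 and 11.40 on the KO LPS arrays, against 11.97, 11.93, 11.84 and 11.97 on the KO saline arrays, and fell by 0.83 ± 0.11 on the log2 scale (adjusted p = 4.62e-05). In WT mice it gave 11.36, 11.44, 11.02 and 11.41 after LPS, against 11.92, 11.92, 11.92 and 11.90 after saline, a change of −0.61 ± 0.11 (adjusted p = 0.00091). No LPS value reached any saline value, and a second Mrpl39 probe set was also called lower in both genotypes. Mrpl19 (bL19) gave 7.29, 7.18, 7.09 and 7.37 on the KO LPS arrays, against 8.07, 8.06, 7.95 and 8.06 on the KO saline arrays. It gave 7.03, 7.35, 7.36 and 7.38 on the WT LPS arrays, against 8.21, 8.09, 7.97 and 8.17 on the WT saline arrays. All 8 LPS values lay below all 8 saline values, and the changes were −0.80 ± 0.10 (adjusted p = 2.89e-05) in KO mice and −0.83 ± 0.10 (adjusted p = 2.3e-05) in WT mice.

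Among the remaining small subunit genes, Mrps35 (mS35) changed by −0.77 ± 0.17 in KO mice (adjusted p = 0.00315) and −0.56 ± 0.17 in WT mice (adjusted p = 0.0272). Mrps16 (bS16) changed by −0.73 ± 0.16 (0.00198) and −0.56 ± 0.16 (0.016), and the groups did not overlap in either genotype for both genes. The WT call of Mrps35 was made in 18 of 25 settings, and it was lost without any 1 of WT LPS arrays 1, 2 and 3 or of WT saline arrays 1, 2 and 4, and without WT saline arrays 1 and 4 together. The WT call of Mrps16 was made in 21, and it was lost without WT LPS array 2 or 3, without WT saline array 1 and without WT saline arrays 1 and 4 together. Mrps31 (mS31) fell in KO mice by 0.69 ± 0.17 (adjusted p = 0.00654) and changed by −0.40 in WT mice (0.118). Its KO call was lost with the mean of its 2 probe sets (adjusted p = 0.069 in limma), and its KO change ranged from −0.85 to −0.30 over the 25 settings. Mrps2 (uS2) changed by −0.53 ± 0.11 (0.00151) in KO mice and −0.59 ± 0.11 (0.000836) in WT mice, but both calls were lost with its second, dimmer probe set. Mrps28 (bS1) changed by −0.55 (0.00535) in KO mice and −0.29 (0.145) in WT mice, and Mrps27 (mS27), a pentatricopeptide repeat protein, by −0.55 (0.00822) and −0.27 (0.211). Mrps5, the uS5 protein near the mRNA entrance, and Mrps12, the uS12 protein of the decoding site, were not called in either genotype, with changes between −0.20 and −0.16.

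Mrps36, the oxoglutarate dehydrogenase component with a ribosomal symbol, had levels of 9.41, 8.96, 9.30 and 9.56 after LPS in KO mice, against 9.95, 9.96, 9.999 and 10.07 after saline. In WT mice it had 9.53, 9.46, 9.39 and 9.78 after LPS, against 10.06, 10.09, 9.82 and 10.04 after saline. Its LPS arrays lay below its saline arrays in both genotypes, and it changed by −0.69 ± 0.12 (adjusted p = 0.000425) in KO mice and −0.46 ± 0.12 (adjusted p = 0.0103) in WT mice. The WT call was lost without WT saline arrays 1 and 4 (adjusted p = 0.118). Its fall therefore adds 1 to each count of 40 and 25 without being a ribosomal protein.

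The 3 genes called higher after LPS in KO mice were Mrps18b, Mrpl52 and Mrpl17. Mrps18b (mS40) measured 9.08, 8.94, 8.66 and 8.43 on the KO LPS arrays, against 8.32, 8.34, 8.44 and 8.21 on the KO saline arrays. KO LPS arrays 1, 2 and 3 were above all KO saline arrays and array 4 was level with the highest of them. The change was 0.45 ± 0.12 (adjusted p = 0.00957). In WT mice Mrps18b measured 8.62, 8.61, 8.72 and 8.62 after LPS, against 8.45, 8.41, 8.46 and 8.48 after saline, a change of 0.19 ± 0.12 that was not called (0.312). Mammals have 3 mitochondrial relatives of the bacterial S18 protein, and they differed: Mrps18a (mL66) changed by −0.46 (adjusted p = 0.0177, and 0.0558 without KO LPS array 2) in KO mice and −0.26 (0.211) in WT mice, and Mrps18c (bS18) by 0.14 (0.36) and 0.15 (0.368). The changes of Mrpl17 were 0.30 ± 0.10 (0.0297) in KO mice and 0.27 ± 0.10 (0.0586) in WT mice. Its other 2 probe sets, which were dimmer, changed by −0.19 (0.162) and −0.08 (0.683) in KO mice and by −0.02 (0.925) and −0.35 (0.0444) in WT mice, so its direction depended on the probe set. Mrpl52 (mL52) rose by 0.33 ± 0.12 (0.0463) in KO mice and changed by 0.18 (0.332) in WT mice. A brighter probe set was used for Mrpl52, and 2 others of this gene changed by 0.51 and 0.53 in KO mice and 0.52 and 0.43 in WT mice, each with an adjusted p under 0.05. The Mrps18b call held in all 25 settings tried, whereas Mrpl17 was called in 15 and Mrpl52 in 10.

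**Figure D3:**
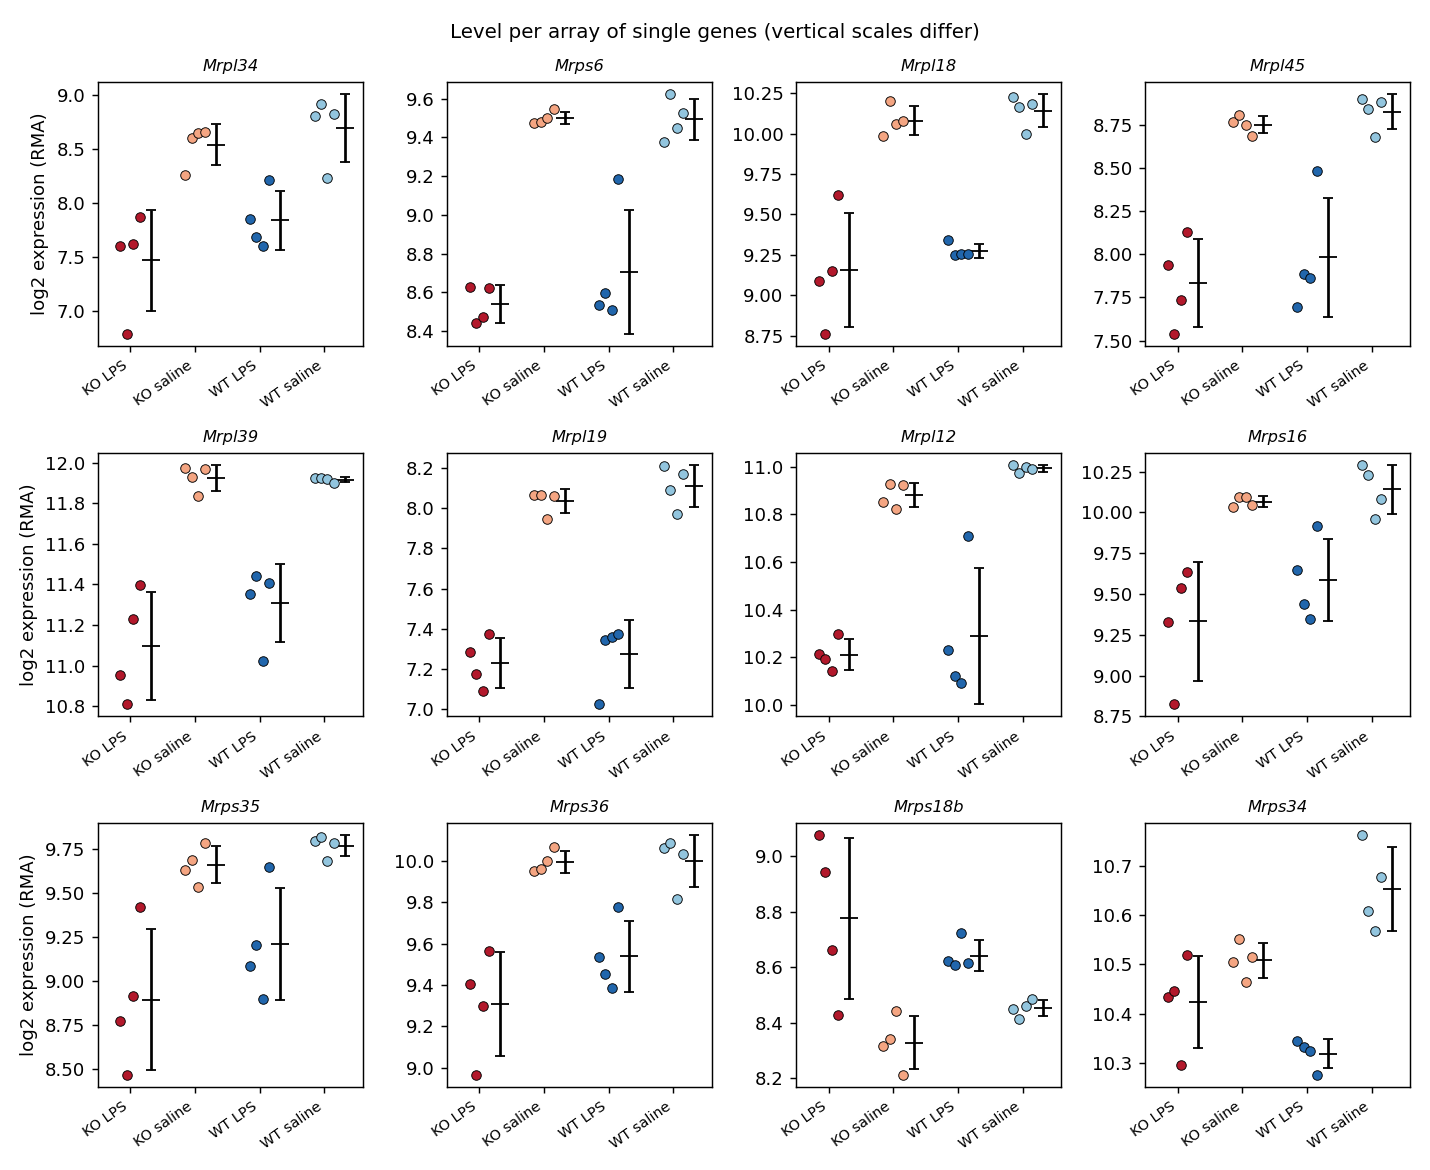
Log2 signal per array (points, vertical axis) of 12 genes in KO LPS, KO saline, WT LPS and WT saline mice, with the mean and SD of the 4 arrays of each group beside them. The vertical scales differ between genes; Mrps18b is higher after LPS in KO mice, Mrps34 is lower after LPS in WT mice, and the other 10 genes are lower after LPS in both genotypes.

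Of the genes called lower, 18 were called in both genotypes, which is 45% of the KO calls and 72% of the WT calls. Without KO LPS array 2, 25 were shared, or 80.65% of 31 KO calls and 73.53% of 34 WT calls. Without WT saline arrays 1 and 4, 7 were shared, or 20% of 35 KO calls and 100% of 7 WT calls. The matching percentages over all genes were not computed, so this overlap does not set the 76 genes apart. The 22 called lower in KO mice but not in WT mice all had a negative change in WT mice, and the 7 called lower in WT mice but not in KO mice all had a negative change in KO mice. In 26 genes no change was called in either genotype. Across the 76 genes the LPS changes of KO and WT mice, which share no arrays, had a Pearson correlation of 0.83, and over all genes it was 0.92; genes within an array are not independent, so no p is given. Called genes with more than 1 probe set had another probe set called lower in 12 of 19 cases in KO mice and 7 of 13 in WT mice, with 0 called in the opposite direction.

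Averaged over the 76 genes, the level was 8.98, 8.67, 8.997 and 9.15 on the KO LPS arrays, against 9.23, 9.37, 9.30 and 9.32 on the KO saline arrays. It was 9.08, 9.06, 9.04 and 9.19 on the WT LPS arrays, against 9.42, 9.40, 9.22 and 9.35 on the WT saline arrays. The LPS arrays were lower in both genotypes, and KO LPS array 2 was the lowest of all 16. Cardiomyocyte markers were also lower after LPS, with a mean over 12 genes of 13.26 to 13.38 on KO LPS arrays, against 13.55 to 13.60 on KO saline arrays. In WT mice the same mean was 13.23 to 13.47 after LPS, against 13.53 to 13.58 after saline. Of these 12 markers, 6 were called lower in KO mice and 7 in WT mice, and 3 in WT mice without WT saline arrays 1 and 4. For this and the marker counts that follow, the shares over all genes were 14.7% lower and 11.4% higher in KO mice. In WT mice they were 11.6% and 9.28%. The mean over 10 neutrophil markers was 5.61 to 6.02 on KO LPS arrays, against 4.09 to 4.17 on KO saline arrays, and 5.25 to 5.76 on WT LPS arrays, against 4.00 to 4.19 on WT saline arrays. Of these 10, 5 were called higher in KO mice and 4 in WT mice, with medians of 0.53 and 0.30. Without WT saline arrays 1 and 4 the WT count was 3. The rise was uneven: S100a8 changed by 5.57 in KO mice, while Elane (−0.04) and Mpo (0.07) were not called. Markers of fibroblasts, which make the collagen matrix, were lower after LPS as well. The mean over 8 of them was 8.85 to 9.83 on KO LPS arrays, against 10.23 to 10.40 on KO saline arrays, and 8.93 to 10.22 on WT LPS arrays, against 10.29 to 10.51 on WT saline arrays. KO LPS array 2 was the lowest of all 16 arrays, and WT LPS array 4 was the highest LPS array. Of the 8, 3 were called lower in each genotype, with medians of −0.59 in KO mice and −0.67 in WT mice, and the KO median was −0.31 without KO LPS array 2. The mean over 8 endothelial markers was 8.18 to 8.45 on KO LPS arrays, against 8.55 to 9.01 on KO saline arrays, and 8.05 to 8.97 on WT LPS arrays, against 8.54 to 8.93 on WT saline arrays. The WT groups overlapped through WT LPS array 4, the highest of that genotype. Of these 8, 3 were called lower in KO mice and 2 in WT mice, and 0 in WT mice without WT saline arrays 1 and 4. The mean over 8 macrophage and monocyte markers was 6.48 to 7.46 on KO LPS arrays, against 7.18 to 7.31 on KO saline arrays, and 6.77 to 8.38 on WT LPS arrays, against 7.29 to 7.39 on WT saline arrays. KO LPS array 2 was again the lowest of all and WT LPS array 4 the highest. Of these 8, 3 were called lower and 2 higher in KO mice, and 2 lower and 2 higher in WT mice. Without WT saline arrays 1 and 4 the WT counts were 1 lower and 2 higher. Adipocyte markers, 5 in number, averaged 5.52 to 5.82 on KO LPS arrays, against 6.32 to 6.76 on KO saline arrays, and 5.66 to 6.24 on WT LPS arrays, against 6.97 to 7.34 on WT saline arrays, with 2 called lower in KO mice and 3 in WT mice. The WT counts of fibroblast and adipocyte markers were also 3 each without WT saline arrays 1 and 4. The part of these cell type markers in the mitoribosomal changes was not tested, and in bulk tissue fewer cells of a type and less RNA per cell cannot be told apart.

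**Figure D4:**
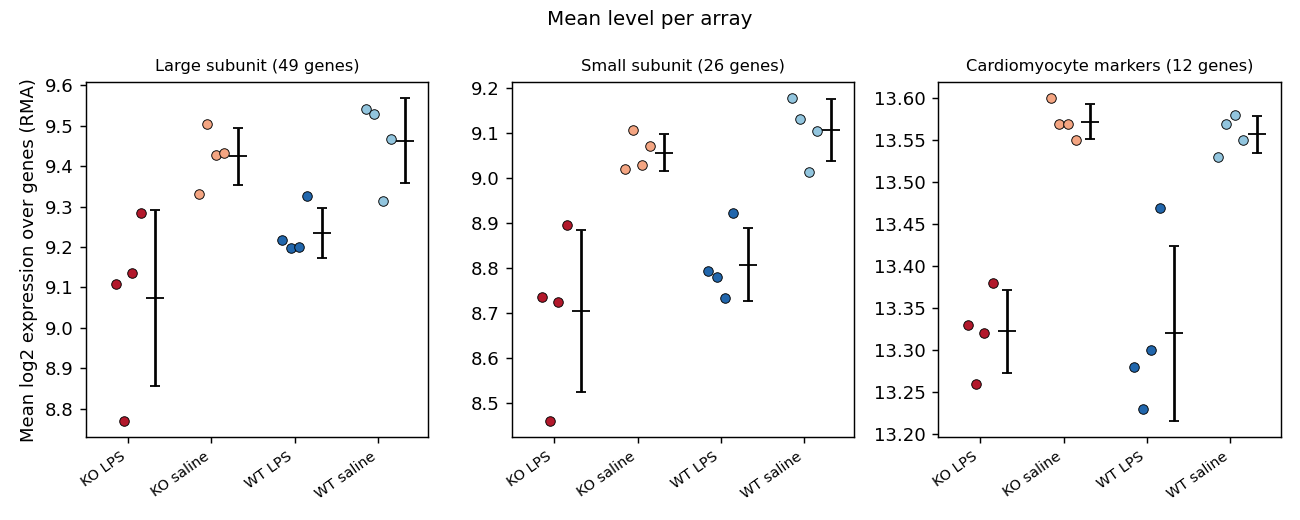
Mean log2 level per array (points) over 49 large subunit genes, 26 small subunit genes and 12 cardiomyocyte markers, with the mean and SD of the 4 arrays of each group. LPS arrays lie below the saline arrays of the same genotype, except that WT LPS array 4 (9.33) and WT saline array 3 (9.31) overlap in the large subunit panel, and KO LPS array 2 is the lowest point of both subunit panels.

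Genes that act with the mitochondrial ribosome were read from lists chosen for their function. Their counts stand beside shares over all genes of 14.7% lower and 11.4% higher in KO mice, and 11.6% and 9.28% in WT mice. Of 12 mitochondrial translation factors, 6 were called lower in KO mice and 3 in WT mice, with medians of −0.40 and −0.32. They included Mtif2, the initiation factor that places the first tRNA (−0.96 in KO mice, adjusted p = 0.00565), and the elongation factors Tsfm (−0.67 in KO mice and −0.49 in WT mice) and Tufm (−0.41 and −0.34). Mtrf1l, a release factor, changed by −0.51 in KO mice and −0.56 in WT mice. Of 27 genes for ribosome assembly and ribosomal RNA modification, 9 were called lower and 0 higher in KO mice, and 5 lower and 2 higher in WT mice. Mrm1, an RNA methyltransferase, had the largest change, −1.33 in KO mice and −1.31 in WT mice. Mettl17 changed by −0.89 and −0.50, and Tfb1m, the dimethyltransferase of the small ribosomal RNA, by −0.96 in KO mice (adjusted p = 0.0331) and −0.33 in WT mice (0.541). The KO change of Tfb1m was −0.48 without KO LPS array 2 (adjusted p = 0.0234), and its call was made in 18 of 25 settings. Ddx28 and Malsu1, both assembly factors of the large subunit, were called higher in WT mice, by 0.40 and 0.48, each in 10 of 25 settings. Of 4 mitoribosomal proteins with other symbols, 1 was called lower in KO mice (Ptcd3, −0.77, adjusted p = 0.00225) and 0 in WT mice. Without WT saline arrays 1 and 4, the WT counts called lower were 1 of 12 translation factors and 1 of 27 assembly and modification genes, with 0 called higher. Fewer genes were called lower over all genes as well in that setting, as given above. The WT calls of Tsfm (adjusted p = 0.0755), Tufm (0.243), Mrm1 (0.0737), Mettl17 (0.356), Ddx28 (0.111) and Malsu1 (0.141) were lost there, and that of Mtrf1l was kept (0.0307). The WT count of translation factors was 5 without KO LPS array 2. With all arrays, 4 of the 12 translation factors had a positive change in WT mice.

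The 21 mitochondrial aminoacyl-tRNA synthetase genes, which include partner subunits, were mixed, with 3 called lower and 3 higher in KO mice, and 1 lower and 2 higher in WT mice. These counts lay near or below the shares over all genes and do not set the list apart. Those shares were 14.7% lower and 11.4% higher in KO mice, and 11.6% and 9.28% in WT mice. Qrsl1, a subunit of the amidotransferase that makes glutaminyl-tRNA, changed by −0.89 in KO mice and −0.92 in WT mice. Kars and Gars, which also serve cytosolic translation, rose by 0.69 and 0.43 in KO mice and by 0.73 and 0.35 in WT mice. Of 13 genes of mitochondrial DNA replication and transcription, 6 were called lower in KO mice and 2 in WT mice. Those called in both were Polrmt, the mitochondrial RNA polymerase (−0.72 and −0.74), and Tfam, its DNA-packaging partner (−0.59 and −0.56). Without WT saline arrays 1 and 4 the WT call of Tfam was lost (adjusted p = 0.0961), so 1 of the 13 genes was called lower in WT mice, and without KO LPS array 2 the WT count was 5. The synthetase counts in WT mice were also 1 lower and 2 higher without WT saline arrays 1 and 4.

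Cytosolic ribosomal protein genes took the other direction, with 16 of 46 called higher and 1 lower in KO mice and 11 higher and 1 lower in WT mice, at medians of 0.15 and 0.16. Rps25 rose by 1.04 in KO mice and 0.82 in WT mice, and the 1 gene called lower was Rpl3l, a muscle form of Rpl3 (−0.82 and −0.51). Oxidative phosphorylation subunits encoded in the nucleus were called lower in 49 of 78 cases in KO mice and 40 of 78 in WT mice, with medians of −0.27 and −0.22. All genes together gave 14.7% lower and 11.4% higher in KO mice, and 11.6% and 9.28% in WT mice. Without WT saline arrays 1 and 4 the WT counts were 4 higher and 0 lower among the cytosolic genes, with Rpl3l at an adjusted p of 0.0568, and 13 lower among the subunits of oxidative phosphorylation. With KO LPS array 2 left out, 19 cytosolic genes were called higher in WT mice.

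**Figure D5:**
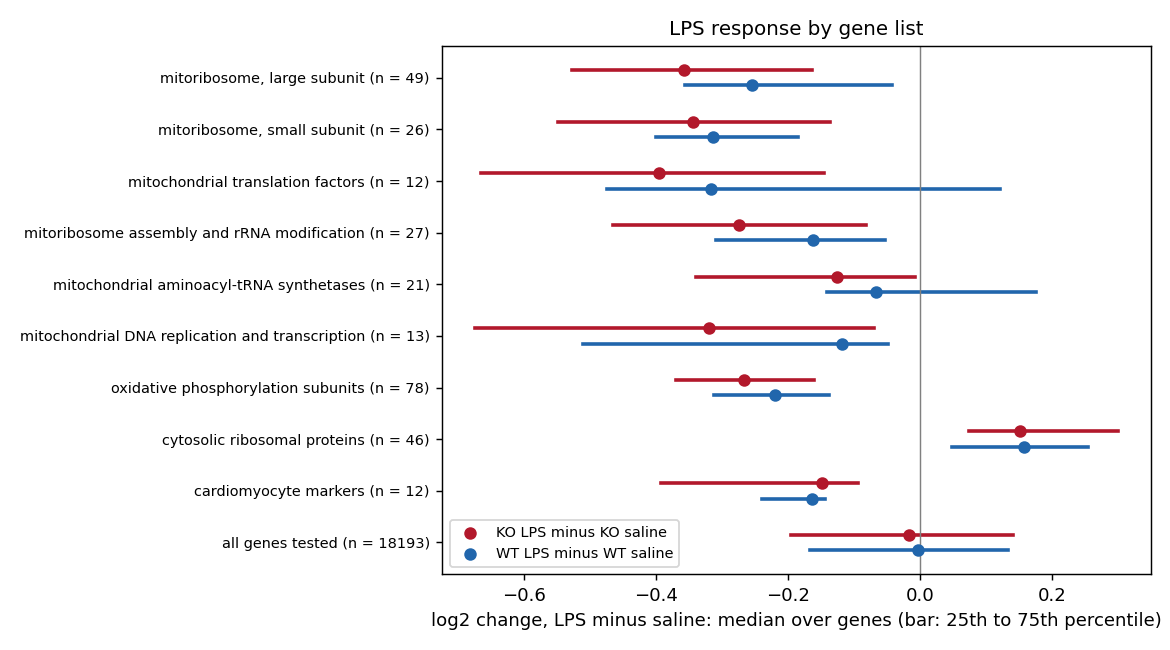
Median log2 change after LPS (points, horizontal axis) with the span from the 25th to the 75th percentile over genes (bars), for both mitoribosomal subunits and companion gene lists, in KO mice (red) and WT mice (blue). The medians of the subunits and of the translation factors lie left of 0, though the WT bar of the translation factors crosses it. The cytosolic ribosomal proteins lie right of 0.

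Of 9 regulators of mitochondrial genes, 4 were called lower and 3 higher in KO mice, and 3 lower and 2 higher in WT mice. Over all genes the shares were 14.7% and 11.4% in KO mice, and 11.6% and 9.28% in WT mice. The coactivators Ppargc1a and Ppargc1b changed by −1.34 ± 0.34 (adjusted p = 0.00684) and −1.33 ± 0.21 (0.00016) in KO mice and by −2.23 ± 0.34 (0.000143) and −1.51 ± 0.21 in WT mice. On WT LPS array 4, which was high for many mitoribosomal genes, Ppargc1a was the lowest of all 16 arrays at 6.48. The regulators were mixed on that array. Among the WT LPS arrays it was also the lowest for Gabpa (7.90), Pprc1 (7.26) and Myc (5.52). It was the highest for Ppargc1b (8.55), Esrra (8.66) and Nrf1 (6.12), and it lay between the others for Yy1 and Gabpb1. The nuclear receptor Esrra changed by −0.76 and −0.70, and Gabpa, the DNA-binding subunit of GABP, by −0.48 (0.0319) in KO mice and −0.41 (0.0794) in WT mice. Myc rose by 2.52 in KO mice and 2.65 in WT mice, and Pprc1, another coactivator of the family, by 1.02 and 0.61. Yy1 rose by 0.30 in KO mice (0.0417) and changed by 0.06 in WT mice (0.762), while Nrf1 and Gabpb1 were not called in either. Without KO LPS array 2 the KO calls of Gabpa (−0.29, adjusted p = 0.0839) and Yy1 (0.31, 0.0529) were lost, and the Yy1 call was made in 12 of 25 settings. Without WT saline arrays 1 and 4 the WT counts of regulators were 2 lower and 1 higher, and the WT calls of Esrra (adjusted p = 0.0876) and Pprc1 (0.086) were lost.

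The genotype comparisons called none of the 76 genes. Between KO LPS and WT LPS arrays 0 were called, against 0.0055% of all genes in either direction, and 7 had an unadjusted p under 0.05. The difference was negative in 63 of the 76 genes with a median of −0.15, and −0.01 over all genes. Without KO LPS array 2 the median over the 76 genes was −0.05. The smallest p belonged to Mrpl38, which measured 8.37, 7.97, 8.22 and 8.49 on the KO LPS arrays, against 8.47, 8.50, 8.57 and 8.96 on the WT LPS arrays, a difference of −0.36 ± 0.14 (unadjusted p = 0.0168, adjusted p = 0.655 in limma). Mrpl9 (bL9) measured 8.81, 8.16, 8.66 and 8.89 on the KO LPS arrays, against 8.98, 8.99, 9.05 and 9.15 on the WT LPS arrays. Its groups did not overlap, with a difference of −0.41 ± 0.16 (adjusted p = 0.655). Mrpl43 (mL43) was next, at −0.33 ± 0.13 (adjusted p = 0.655). Groups without overlap were seen for 2 genes lower in KO mice (Mrpl9 and Mrpl57) and 1 higher (Mrps25), against 1.18% and 1.08% of all genes.

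Between KO saline and WT saline arrays 0 genes were called, against 0.0055% of all genes, and 0 of the 76 had an unadjusted p under 0.05 in limma. With all arrays the median difference was −0.04, and 59 of the 76 differences were negative. WT saline arrays 1 and 4, which carried skeletal muscle transcripts, had mean levels over the 76 genes of 9.42 and 9.35. WT saline arrays 2 and 3 had 9.40 and 9.22, against 9.23 to 9.37 on the KO saline arrays. Over the settings other than single arrays left out, the median difference lay between −0.042 and −0.0005. Those settings include leaving out WT saline arrays 1 and 4 together. Groups without overlap were seen for 2 genes lower in KO mice (Mrpl12 and Mrps34) and 0 higher, against 2.08% and 1.81% of all genes. The smallest p belonged to Mrps34 (mS34), which read 10.51, 10.55, 10.46 and 10.52 on the KO saline arrays, against 10.76, 10.61, 10.57 and 10.68 on the WT saline arrays, with no overlap. Its highest values were those of WT saline arrays 1 and 4. The difference was −0.15 ± 0.07 (unadjusted p = 0.063, adjusted p = 1.0 in limma). Mrpl20 (−0.18 ± 0.10) and Mrpl35 (−0.14 ± 0.08) followed with the same adjusted p.

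The LPS response differed between KO and WT mice for 0 of the 76 genes by the interaction term, as for 0 of all genes, and 1 of the 76 had an unadjusted p under 0.05. The median interaction, KO response minus WT response, was −0.12, the value was negative in 54 genes, and without KO LPS array 2 the median was −0.01. A gene called in a single genotype was therefore not shown to differ between them. The smallest p belonged to Mrps34, whose LPS arrays read 10.43, 10.45, 10.29 and 10.52 in KO mice and 10.34, 10.33, 10.32 and 10.28 in WT mice. Against the saline values given above, its change was −0.09 ± 0.07 in KO mice (adjusted p = 0.448) and −0.34 ± 0.07 in WT mice (adjusted p = 0.00302). The interaction was 0.25 ± 0.10 (unadjusted p = 0.0272, adjusted p = 0.959 in limma), and its WT call was lost without WT saline arrays 1 and 4. Mrpl38 (−0.40 ± 0.19) and Mrpl40 (mL40, −0.37 ± 0.23) came next, with an adjusted p of 0.959.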

How the data were processed

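The members and all gene lists were chosen with earlier results of these data known. Total RNA was labelled as biotinylated cRNA and hybridised to 1 Affymetrix array per sample. The authors deposited RMA values on a log2 scale, 1 per probe set, per the submitters' processing notes (RMA corrects background, quantile-normalizes and summarises probes); the RMA version is not given in the sources used here. Of 45101 probe sets, with 0 values missing, 64 controls, 932 probe sets with several symbols and 9160 unnamed here were left out. Array medians were 4.62 to 4.67. Arrays have no read depth, so their number limits the precision.

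Symbols came from the platform annotation, and all 76 matched RefSeq genes. A limma model (3.58.1, R 4.3.3) took all 16 arrays together with a mean for each group, 12 residual degrees of freedom and a variance trend on intensity, and two-sided p-values were adjusted by Benjamini-Hochberg over 18193 genes. Errors of changes are standard errors. The method was tested on simulated data. P-values measure the spread between arrays; that each came from a separate mouse is not stated. Genes named by rule were the 12 largest falls or rises per LPS comparison among called members without overlap between groups, the 3 smallest p per genotype comparison and the interaction, the 3 highest and lowest mean levels per subunit, members whose symbol names another subunit or complex, and up to 4 called genes per companion list with the regulators. Others, including Mrps18b, Mrpl52, Mrpl17 and the genes of the central protuberance, stalk, exit site and S18 family, were chosen after their values were seen. Alternatives changed the choice of probe set, filter, variance model, weights, centring, replicate block, arrays fitted and single arrays left out; leaving out WT saline arrays 1 and 4 together, and reading the companion lists and shared calls without KO LPS array 2, were added after seeing the data. Levels of the deleted receptor gene are not reported here. Replicate numbers did not pair the samples: 3 of 24 same-numbered pairs correlated above 0.1. Some arrays of unlike number did deviate together from their group means over all genes. KO LPS array 2 correlated at 0.35 with KO saline array 1 and at 0.22 with WT saline array 3. The latter 2 correlated at 0.33. The cause was not tested.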

Additional observations from a re-analysis of the deposited data

Results flagged for a closer look

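Of 140 sets of 4 arrays examined (named members and list means in each group), 11 had 1 array far from the other 3 by Dixon's criterion, where chance gives about 7. Array 4 of the WT LPS group was the high one for the mean of the large subunit genes (9.33), for Mrps6 (9.18) and for Mrps28 (10.16). Array 1 of that group was high for Mrpl18 (9.34) and low for Mrpl19 (7.03). Array 3 of the WT saline group was low for Mrpl34 (8.23) and high for Mrps30 (8.38), and array 4 was low for Mrpl39 (11.90), whose other values were 11.92. In the KO saline group, array 3 was low for Mrpl19 (7.95) and array 1 was low for Mrpl34 (8.26). In the KO LPS group, array 4 was high for Mrps5 (7.36). The cause was not tested in any of these.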

How the results depend on the processing

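No count or median of the whole set changed direction. Single genes did with the probe set of highest variance, where Mrpl17 in KO mice was −0.0825 in place of 0.30 (adjusted p = 0.696), Mrps9 in KO mice 0.4065 in place of −0.31 (0.228), and Mrpl1 in WT mice −0.757, called lower, in place of 0.13, which was not called. In KO mice after LPS the count called lower (40) lay between 33 and 45 over the settings other than single arrays left out, and between 27 and 45 with those; the median stayed between −0.42 and −0.28. The KO count called higher (3) was 1 with the replicate block, with only the arrays of the groups compared and without WT saline arrays 1 and 4, and 1 to 4 with single arrays left out. In WT mice the count called lower (25) was 46 with array weights, 7 without WT saline arrays 1 and 4, and 16 (without WT saline array 1) to 37 (without WT LPS array 4) with single arrays left out; the median stayed between −0.32 and −0.23. The WT count called higher (0) was 1 with the mean of all probe sets, the probe set of highest variance, no intensity trend, array weights or only genes above the median, and 0 to 1 with single arrays left out. Replicate numbers did not pair the samples, and 4 of 16 arrays correlated best with their own number; with replicate as a block 37 genes were called lower in KO mice and 23 in WT mice. The 0 calls between genotypes and for the interaction held in every setting. With single arrays left out, the median genotype difference ranged from −0.24 to −0.05 after LPS and from −0.09 to −0.01 after saline, and the median interaction from −0.20 to −0.01. Over the other settings these ranges were −0.17 to −0.08, −0.042 to −0.0005 and −0.15 to −0.03. Of the called genes, 24 of 43 in KO mice and 6 of 25 in WT mice were called in all 25 settings. Where a count moved, the cause was not tested. The share of all genes called also moved in the settings where it is given above, and it is not given for the others. A moved count is therefore not read as particular to the mitoribosomal genes or to a companion list. With 4 arrays per group and a median standard error near 0.13, small differences between genotypes could not be resolved.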
